A study of Mus musculus with 60 samples.

Results

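Canonical imprinted genes were followed through mouse embryos made by nuclear transfer (NT), through embryos from mating and in the donor cells. The members were the genes named in a fixed set of 39 imprinted genes, matched by symbol to the Ensembl identifiers of the deposited table. Of these, 38 were found among the 27238 genes of the table, and the expression of Magel2 is not analysed here. From textbook knowledge, 14 of the 38 were labelled as expressed from the maternal allele and 22 from the paternal allele. Ddc and Gnas were left unassigned because their expressed allele depends on tissue or promoter. A label can also hold in some tissues only for other members, and whether it holds in these embryos was not tested.

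Imprinted genes are transcribed mainly from a single parental allele, which is set by DNA methylation laid down in the egg or the sperm at an imprinting control region. The marks normally survive the wave of demethylation after fertilisation, and a group of factors that includes ZFP57, TRIM28 and DPPA3 protects them. Many of these genes act on growth and the placenta: paternally expressed members such as Igf2 and Mest tend to promote growth, and maternally expressed members such as Igf2r, Cdkn1c and Phlda2 tend to restrain it. The values here are summed over both alleles, so they show how much of a transcript was present and not from which allele it came.

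Single embryos of 3 types were sequenced at 6 stages from the 1-cell embryo through the 8-cell embryo and the morula to the blastula, with 3 libraries in each of 20 groups and 60 libraries in all. In vivo embryos came from C57BL/6 females mated with DBA/2 males. NT embryos were enucleated BDF1 oocytes that received a BDF1 nucleus, from a cumulus cell (CC) in NTC embryos and from a mouse embryonic fibroblast (MEF) in NTM embryos. MEFs came from fetuses, were cultured over several passages and, as donors, were held in low serum to synchronise the cell cycle. CCs came from adult females and were stored cold until use. The donor cells were sequenced as well, and cell type, age and culture cannot be told apart between them. NT embryos were activated with SrCl2 and cytochalasin B, exposed to the histone deacetylase inhibitor Scriptaid and cultured, and in vivo embryos were not. The eggs of NT embryos came from BDF1 females superovulated with gonadotropins. Those of in vivo embryos came from C57BL/6 females, for which no hormone treatment is given. Nuclear transfer, the strain and hormone treatment of the females, the drug and culture thus cannot be told apart. Embryos had been chosen by their morphology, and the BDF1 females that gave oocytes and cumulus cells were 8 to 10 weeks old.

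Expression was given as RPKM, read counts scaled to transcript length and to library size, which allows levels to be compared between genes. The reads on genes, recovered from the steps of the RPKM values, were 5293982 to 26283681 in embryo libraries and 31557678 to 47829626 in donor libraries. A value of 0 leaves room for up to 3 reads by counting alone, a limit that leaves out losses during amplification, since the reads carry no molecular identifiers. A member passed the test when its adjusted p (limma on log2(RPKM + 1), Benjamini-Hochberg over all genes tested) was under 0.05 and its log2 difference at least 1 in size. The 3 libraries of a group are separate embryos or donor samples, so a p measures their spread. Tests took genes with a mean of at least 0.5 RPKM in the libraries compared. A log2 difference of log2(RPKM + 1) understates the change of genes at low levels. Fewer cells with a transcript and less of it per cell cannot be told apart in a whole embryo.

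The summed fibroblast marker list (9 genes) was at 8722 to 11461 RPKM in MEF libraries, with all 9 genes above 0, and at 4.79 to 6.41 in CC libraries. The cumulus list (11 genes) was at 638 to 1433 RPKM in CC libraries and at 496 to 1210 in MEF libraries, where Ptx3 and Tnfaip6 held most of it. Inha, Star and Cyp11a1 were at 14.7 RPKM or more in each CC library and at 5.46 or less in MEF libraries, whereas Amh, Amhr2, Foxl2 and Fshr were at 14.9 or less and Has2 at 0 in CC libraries. In embryos the fibroblast list summed to at most 22.3 RPKM (an NTM 4-cell library, mostly Dcn) and the cumulus list to at most 56.4 (an NTC 4-cell library, mostly Amhr2). The preimplantation list (6 genes) summed to 133 to 361 RPKM in blastulas and to at most 0.0405 in donor libraries. The in vivo 4-cell libraries stood apart in Dppa3, at 8284 to 12402 RPKM where no other embryo library exceeded 149. NTM 4-cell replicate 2 stood apart in the summed oocyte list (6 genes), at 382 RPKM where the other 8 libraries of its stage were at 76.9 or less.

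Promoter stretches are shown for 4 members that differed between NTC and in vivo 4-cell embryos, since these are the members whose levels the main comparison turns on. Each is the 250 bases before the annotated start in RefSeq (GRCm38.p6), 5′ to 3′ on the strand of the gene, with matches to TGCCGC, the letters bound by ZFP57 when methylated, in capitals. Mcts2 lies at chr2:152686898-152687147 on the plus strand, Zrsr1 at chr11:22971755-22972004 on the plus strand, Igf2r at chr17:12769707-12769956 on the minus strand and Phlda2 at chr7:143502525-143502774 on the minus strand.
Mcts2: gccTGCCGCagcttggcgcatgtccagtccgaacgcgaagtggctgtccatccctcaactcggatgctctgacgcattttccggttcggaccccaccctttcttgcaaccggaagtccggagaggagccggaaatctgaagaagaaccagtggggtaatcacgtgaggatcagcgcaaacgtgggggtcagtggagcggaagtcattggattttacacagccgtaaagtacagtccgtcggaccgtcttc
Zrsr1: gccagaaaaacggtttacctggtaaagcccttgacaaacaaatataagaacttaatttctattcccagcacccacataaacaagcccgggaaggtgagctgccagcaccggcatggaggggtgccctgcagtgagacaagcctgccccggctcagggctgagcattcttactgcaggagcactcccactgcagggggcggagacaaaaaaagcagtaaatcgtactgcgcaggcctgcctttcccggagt
Igf2r: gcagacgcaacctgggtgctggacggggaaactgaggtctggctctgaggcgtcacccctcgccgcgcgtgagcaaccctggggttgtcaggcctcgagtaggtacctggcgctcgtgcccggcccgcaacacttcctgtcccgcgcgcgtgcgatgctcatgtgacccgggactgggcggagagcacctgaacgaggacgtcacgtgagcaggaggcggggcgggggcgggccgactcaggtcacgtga
Phlda2: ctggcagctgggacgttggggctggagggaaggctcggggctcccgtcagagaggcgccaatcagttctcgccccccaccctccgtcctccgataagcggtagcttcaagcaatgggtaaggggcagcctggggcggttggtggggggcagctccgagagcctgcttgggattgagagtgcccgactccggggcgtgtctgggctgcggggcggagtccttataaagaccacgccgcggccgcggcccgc

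Only the Mcts2 stretch among these 4 holds a match, 1 in 250 bases, in a search of both strands. The stretches differ in CG content, with 27 CG in Igf2r, 21 in Phlda2, 20 in Mcts2 and 8 in Zrsr1. Over windows of 300 bases (250 before and 50 after the start), 33 of the 39 named genes, Magel2 included, had 48 windows in RefSeq. Of the 48, 12 (25%), from 11 genes, held TGCCGC, among them overlapping windows of Mest. Among all 32851 windows the share was 11.6%. The median CG count was 14.5 in member windows against 7 in all windows. It was 18 for maternally and 12 for paternally expressed members, and windows with a match were 4 of 15 and 8 of 27. A match is a run of letters and not a bound site.

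The members ranged from substantial levels in embryos to values near 0. In 12 of 38 members at least 1 of the 18 embryo groups had a mean of 10 RPKM or more, and in 12 members every embryo group mean was under 1 RPKM. The highest group was MEF for 18 members, CC for 3 (Cd81, Nap1l5 and Nnat) and an embryo group for 17. The number of members above 0 per library ran from 9 to 12 in in vivo blastulas and from 20 to 28 in NTM blastulas, with 21 to 26 in NTC blastulas. Of all genes in the table, 28.4% to 28.7% were above 0 in in vivo blastulas, 43.2% to 47.7% in NTC and 42.2% to 49.8% in NTM blastulas, so the table as a whole showed the same order. In 1-cell embryos the ranges were 13 to 20 members (in vivo), 23 to 25 (NTC) and 17 to 19 (NTM), beside 34.8% to 46.2%, 51.5% to 52.4% and 44.4% to 45.3% of all genes.

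**Figure D1:**
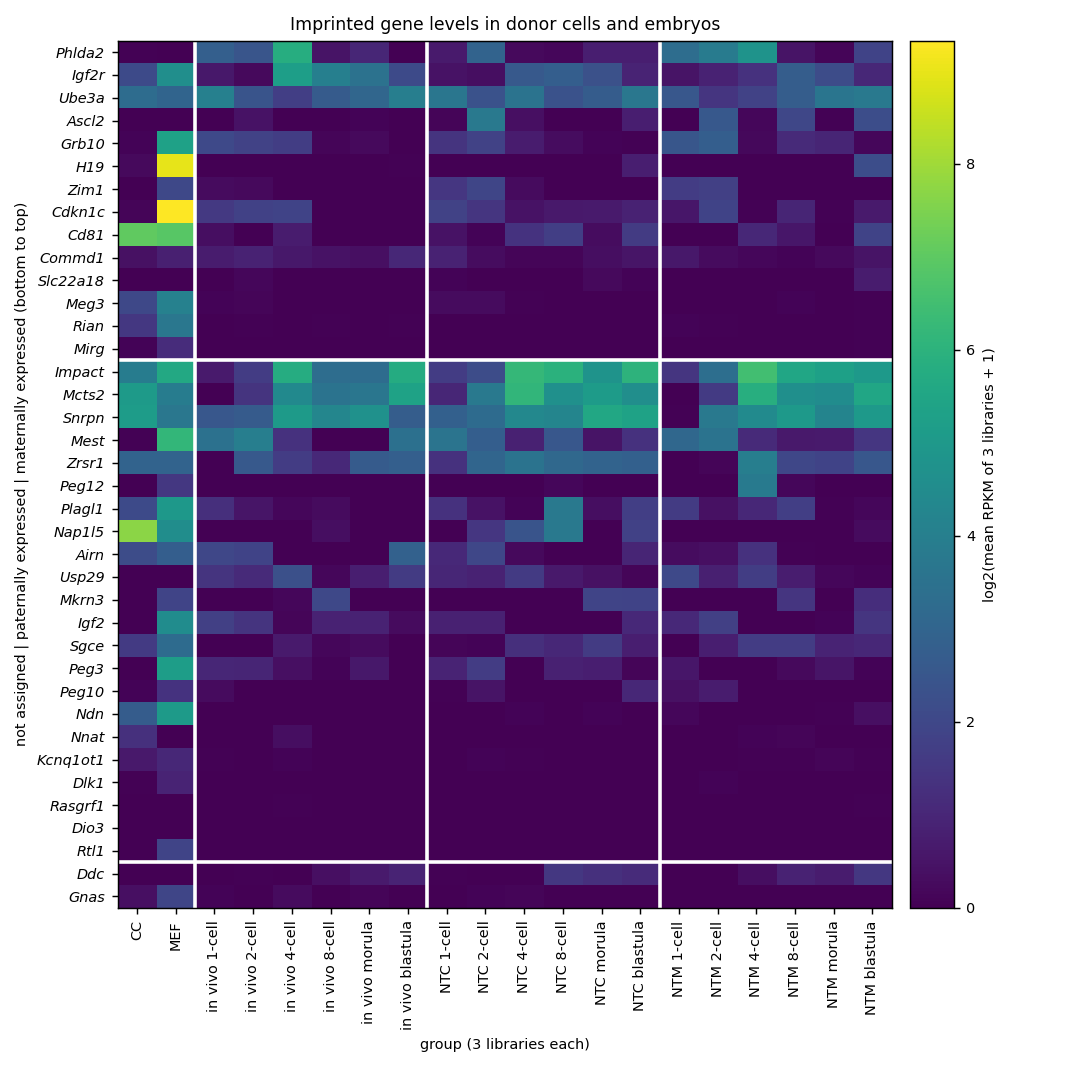
Heat map of log2(mean RPKM + 1) over 3 libraries for the 38 imprinted genes (rows, split by the allele they are known to be expressed from) in 20 groups (columns). In 4-cell embryos Impact, Mcts2 and Snrpn have means over 10 RPKM in all 3 types, Igf2r is highest in in vivo 4-cell embryos (36.6 RPKM), and H19 and Cdkn1c are highest in MEF (504.5 and 638 RPKM).

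From the 4-cell stage on the paternally expressed members summed higher than the maternally expressed ones in each embryo library but in vivo 4-cell replicate 1 (104 against 169 RPKM). The 22 together reached 89.0 to 154 RPKM in in vivo 4-cell libraries, 153 to 225 in NTC and 157 to 288 in NTM libraries. Impact alone made up 46.0%, 40.4% and 44.1% of these sums. At the 8-cell stage the sums were 34.5 to 58.0 RPKM in vivo, 58.4 to 212 in NTC and 95.6 to 122 in NTM embryos, and neither NT group overlapped the in vivo range. The 14 maternally expressed members were highest in in vivo 4-cell embryos, at 49.3 to 169 RPKM, of which Phlda2 held 54.9%, with 11.4 to 23.3 in NTC embryos and 2.80 to 69.9 in NTM embryos. Ube3a made up 77.2% (in vivo), 64.9% (NTC) and 45.3% (NTM) of the maternal sums in blastulas. These sums are descriptions and were not tested.

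**Figure D2:**
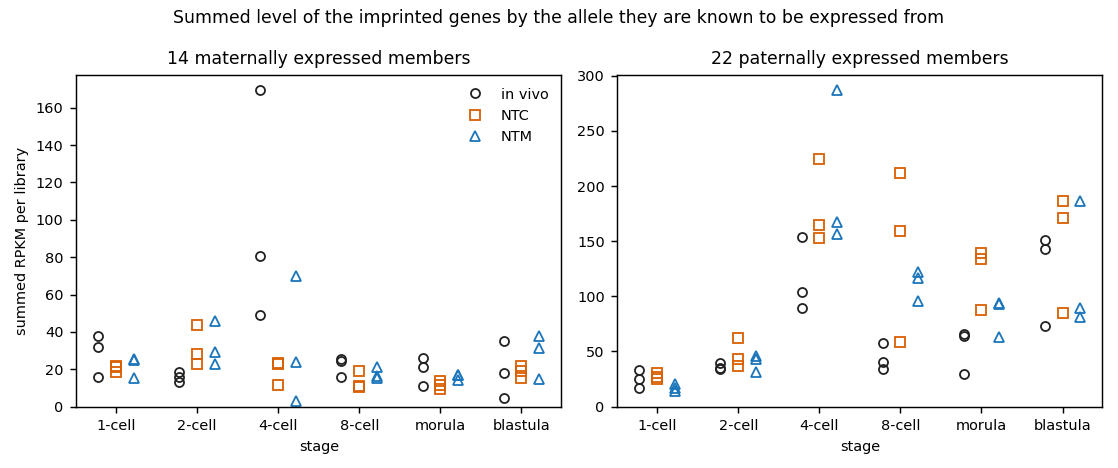
Summed RPKM per library (y axis, linear from 0) of the 14 maternally and the 22 paternally expressed members at 6 stages, with each point a library of in vivo, NTC or NTM embryos. The maternal sums peak at the 4-cell stage in vivo (49.3 to 169 RPKM), and the paternal sums rise between the 2-cell and the 4-cell stage in all 3 embryo types.

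The comparison of NT with in vivo embryos of the same stage asks where imprinted genes depart from normal development. At the 4-cell stage 4 of 14 members tested differed between NTC and in vivo embryos, beside 27.8% of all genes tested, and 2 of the 4 were higher (7.4% of all genes) and 2 lower (20.4%). Between NTM and in vivo embryos 2 of 16 differed, both lower, beside 21.1% of all genes tested (3.33% higher, 17.8% lower). With median-ratio scaling 2 were called as well, Igf2r lower and Mcts2 higher (log2 difference 2.06, adjusted p = 0.0393), and Cdkn1c was not. Igf2r, the receptor that clears IGF2, was lower in both NT types, and Phlda2, a restrainer of placental growth, was lower in NTC embryos. Mcts2 and Zrsr1, intronless retrogenes, were higher in NTC embryos, and Cdkn1c, a cell cycle inhibitor, was lower in NTM embryos. Both comparisons use the same 3 in vivo libraries. The shares of members called lie near or under the background shares, except for the higher calls in NTC, which lie above theirs. Those rest on 2 members, and both were lost in one fit over all 20 groups. The groups did not overlap for 7 of 14 members (NTC) and 4 of 16 (NTM), beside 43.9% and 41.1% of all genes tested. The median log2 difference over the members tested was 0.01 in NTC libraries and 0.13 in NTM libraries, beside -0.39 and -0.69 over all genes tested. With median-ratio scaling the all-gene medians moved to -0.09 and -0.21, and the share of called genes that were higher in NT moved from 26.6% to 41.2% (NTC) and from 15.8% to 36.8% (NTM).

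Igf2r was at 42.7, 32.2 and 34.9 RPKM in in vivo 4-cell embryos, at 9.31, 3.09 and 2.65 in NTC libraries and at 1.04, 0.586 and 2.93 in NTM libraries. The in vivo libraries were high and close together, and no NT library came near them. The mean was 36.6 ± 5.46 RPKM (SD, n = 3) in vivo, and the log2 difference was -2.80 (SE 0.46, adjusted p = 0.00238) for NTC and -4.0 (SE 0.52, adjusted p = 0.00214) for NTM. Both calls stood in every alternative run. Airn, the noncoding RNA that silences Igf2r on the paternal allele, overlaps it on the opposite strand and was at 0 in the 3 in vivo 4-cell libraries, at 0.556, 0 and 0 RPKM in NTC and at 0, 4.46 and 0 in NTM libraries. Whether counting used strand is not given in the sources used here, and without strand the reads of this pair cannot be told apart.

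Phlda2 was at 118, 39.9 and 6.39 RPKM in in vivo 4-cell embryos and at 0, 0 and 0.515 in NTC embryos. The groups did not overlap, although the in vivo libraries themselves differed widely. The log2 difference was -4.85 (SE 0.89, adjusted p = 0.00425), and it stood in every alternative run. NTM embryos gave 0, 18.3 and 61.5 RPKM, which overlaps the in vivo values, and their log2 difference of -1.63 did not pass the test (adjusted p = 0.474). Phlda2 was at 0 or at most 0.0419 RPKM in every donor library.

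Cdkn1c lay low in embryos of any type. It was at 2.24, 1.88 and 3.93 RPKM in in vivo 4-cell embryos, at 0, 0.106 and 0 in NTM and at 0, 1.14 and 0 in NTC embryos. Neither NT group overlapped the in vivo group. The log2 difference was -1.79 (SE 0.45, adjusted p = 0.0278) for NTM and -1.48 (SE 0.52, adjusted p = 0.0632) for NTC. The NTM call was lost when any 1 of the 3 in vivo libraries or NTM 4-cell replicate 1 was left out (adjusted p = 0.0529 to 0.0598) and with median-ratio scaling (adjusted p = 0.0558). Both NTM calls of this stage stood without NTM 4-cell replicate 2.

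Mcts2 was at 20.2, 17.2 and 24.2 RPKM in in vivo 4-cell embryos, at 67.6, 50.4 and 88.1 in NTC libraries and at 35.97, 92.6 and 41.8 in NTM libraries. All 6 NT libraries were above the 3 in vivo libraries. The log2 difference was 1.67 (SE 0.32, adjusted p = 0.00492) for NTC and 1.31 (SE 0.47, adjusted p = 0.0863) for NTM, so the NTM difference did not pass the test. The NTC call was lost in one fit over all 20 groups (adjusted p = 0.170) and stood in the other alternatives run. Mcts2 is a retrocopy of Mcts1, which was at 9.80, 6.82 and 20.9 RPKM in NTC and 16.3, 9.78 and 23.6 in in vivo 4-cell embryos with overlap. The division of reads between the copies is uncertain.

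Zrsr1 was at 1.44, 3.50 and 1.47 RPKM in in vivo 4-cell embryos, at 6.03, 18.1 and 8.08 in NTC libraries and at 3.61, 0.748 and 39.96 in NTM libraries. The NTC libraries were all above the in vivo libraries, whereas the NTM libraries spread over both. The log2 difference was 1.83 (SE 0.52, adjusted p = 0.0298) for NTC and 1.20 for NTM (adjusted p = 0.448). The NTC call was lost when any 1 of the in vivo libraries or NTC 4-cell replicate 2 or 3 was left out (adjusted p = 0.050 to 0.110). It was also lost in one fit over all 20 groups (adjusted p = 0.145) and without a filter on low values (adjusted p = 0.0667). Zrsr2, the parent gene of Zrsr1, was also higher, at 20.04, 13.6 and 15.8 RPKM in NTC against 4.49, 2.76 and 7.29 in in vivo embryos. The part of reads shared between the copies was not tested. Commd1, the host gene of Zrsr1, was at most 0.577 RPKM in these libraries.

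The other members tested at the 4-cell stage did not pass the test in either comparison. Snrpn, which encodes a splicing protein, was at 30.4, 29.4 and 38.7 RPKM in vivo and 10.8, 28.5 and 18.3 in NTC embryos, without overlap (log2 difference -0.83, adjusted p = 0.151). Impact, a translational regulator, was at 40.3, 98.2 and 21.0 RPKM in vivo, 61.1, 111 and 47.8 in NTC libraries and 206, 22.5 and 41.4 in NTM libraries, with wide overlap. Grb10, which encodes an adaptor that restrains growth, was at 3.14, 2.29 and 1.31 RPKM in vivo and 0, 0.124 and 0.352 in NTM embryos, without overlap (log2 difference -1.46, adjusted p = 0.0587). Peg12 was at 39.1 RPKM in NTM 4-cell replicate 2 and at 0 in the other 8 libraries of this stage.

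**Figure D3:**
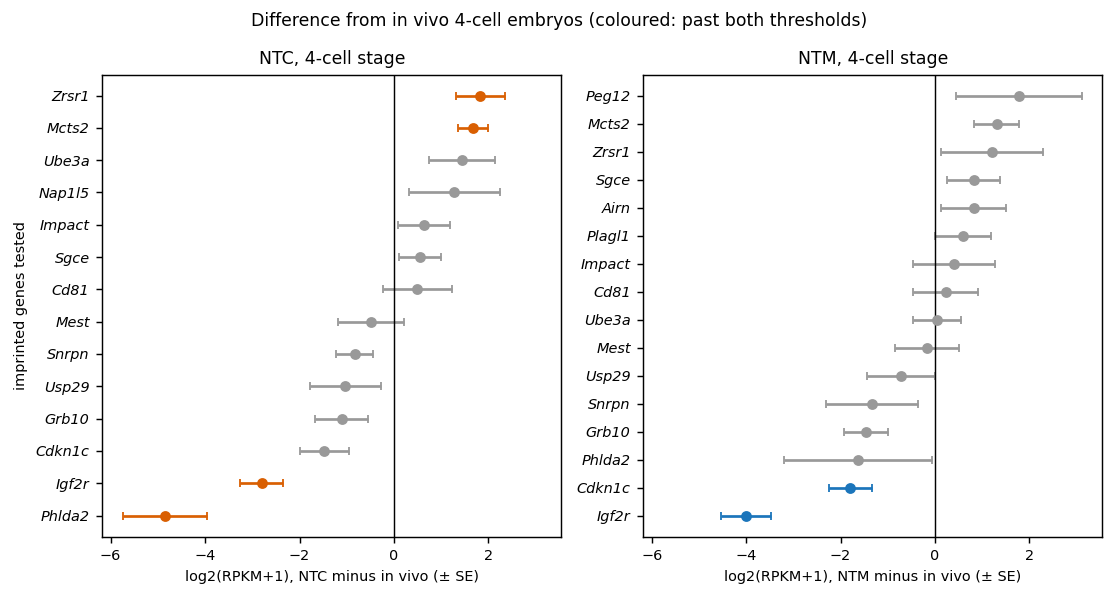
Log2 difference in log2(RPKM + 1) between NTC (left, 14 members) or NTM (right, 16 members) and in vivo 4-cell embryos, with points for the estimate, bars for ± 1 SE and 3 libraries per group. Coloured points passed both thresholds, and Igf2r lies at -2.80 and -4.0.

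No member passed the test by limma at any stage but the 4-cell stage. In 1-cell embryos this was 0 of 15 members (NTC) and 0 of 14 (NTM), beside 1.16% and 1.28% of all genes tested, with 3 and 2 members under 0.05 before adjustment. In 2-cell embryos it was 0 of 17 and 0 of 16, beside 0.152% and 0.141%, with 1 and 0 members under 0.05 before adjustment. In 8-cell embryos it was 0 of 13 and 0 of 12, beside 1.46% and 2.02%, with 5 and 4. Morulae gave 0 of 12 and 0 of 10, beside 0.0321% and 0.168%, with 5 and 2. Blastulas gave 0 of 17 and 0 of 18, beside 9.46% and 0.746%, with 2 and 4. The blastula backgrounds rested on single libraries: the NTC comparison called 1 gene without NTC blastula replicate 2, and the NTM comparison called 1488 without NTM blastula replicate 3 and 1 without in vivo replicate 2 or 3 or NTM replicate 1 or 2. So did the 1-cell backgrounds. Without in vivo 1-cell replicate 1 the comparisons called 1524 (NTC) and 853 (NTM) genes, with 0 and 2 members. With any 1 of the NTC 1-cell libraries left out, the NTC comparison called 1 gene.

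Groups without overlap were seen for 4 and 3 members in NTC and NTM 1-cell embryos (33.5% and 23.1% of all genes tested) and for 3 and 3 in 2-cell embryos (15.3% and 15.6%). At the 8-cell stage they were 6 and 5 members (29.9% and 25.8%), in morulae 4 and 2 (20.6% and 16.2%) and in blastulas 3 and 6 (35.1% and 32.6%). These counts are small, and the members named next are single cases among them. A member that did not pass the test is not thereby shown to be equal, and one fit over all 20 groups called 1 to 5 members in 7 of these 10 comparisons.

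In 1-cell embryos Zrsr1 was at 0 in the 3 in vivo and the 3 NTM libraries and at 2.05, 1.15 and 1.38 RPKM in NTC embryos (68, 60 and 59 reads). Mcts2 followed the same split, with 0 in all 6 in vivo and NTM libraries and 1.29, 0.342 and 1.34 RPKM in NTC embryos (12, 5 and 16 reads). Neither passed the test against in vivo embryos (Zrsr1, adjusted p = 0.0898), and Mcts2 lay under the filter. Zim1, a maternally expressed zinc finger gene of the Peg3 domain, was at 1.75, 1.91 and 1.70 RPKM in NTC, 1.39, 1.65 and 3.42 in NTM and 0, 0.560 and 0.0433 in in vivo 1-cell embryos. At the 2-cell stage Zim1 was at 6.21, 1.5 and 0.891 RPKM in NTC, 0.956, 3.13 and 3.08 in NTM and 0.331, 0 and 0.214 in in vivo embryos, so that all 12 NT libraries of these stages were above the 6 in vivo ones. From the 8-cell stage on Zim1 was at 0 in every embryo library. The adjusted p was 0.118 and 0.264 at the 1-cell stage and 0.548 and 0.590 at the 2-cell stage, whereas the fit over all 20 groups passed Zim1 in all 4 comparisons (adjusted p = 0.000755 to 0.00425).

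Ascl2, a factor needed for the placenta, appeared in NTC 2-cell embryos at 3.57, 24.9 and 9.96 RPKM. In vivo 2-cell embryos gave 0.566, 0 and 0.563 RPKM and NTM embryos 14.8, 0 and 0. The NTC and in vivo groups did not overlap (log2 difference 3.02, SE 0.78, adjusted p = 0.287). Ascl2 was at 0 in both donor cells.

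At the 8-cell stage Igf2r lay under its in vivo level again, at 19.9, 15.8 and 10.5 RPKM in vivo, 8.76, 5.80 and 3.22 in NTC libraries and 5.82, 3.36 and 7.93 in NTM libraries. In morulae Igf2r was at 8.08, 15.1 and 7.77 RPKM in vivo, 4.11, 3.80 and 3.85 in NTC libraries and 6.89, 2.91 and 0.786 in NTM libraries. At both stages all 6 NT libraries were under the in vivo libraries, and the log2 differences of -1.28 and -1.31 (8-cell) and -1.14 and -1.51 (morula) did not pass the test (adjusted p = 0.185 to 0.493). In blastulas Igf2r was down to 0.533, 2.75 and 6.54 RPKM in vivo and 0.118 to 2.17 in NT embryos, and the groups overlapped.

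Most members tested were on the opposite side at the 8-cell stage, as were most of all genes tested. The log2 difference was above 0 for 9 of 13 members (NTC) and 11 of 12 (NTM), beside 69.0% and 59.8% of all genes tested. The NTC count lies near the share over all genes. Several paternally expressed ones follow as single cases. Mcts2 was at 10.1, 12.3 and 9.77 RPKM in vivo, 33.1, 17.4 and 23.1 in NTC libraries and 21.7, 23.8 and 27.1 in NTM libraries, without overlap (adjusted p = 0.254 and 0.168). Impact was at 2.2, 21.4 and 3.51 RPKM in vivo, 132, 8.15 and 40.4 in NTC libraries and 46.9, 22.5 and 65.5 in NTM libraries (adjusted p = 0.2 and 0.0925). The NTM libraries of Impact were above the in vivo libraries and the NTC libraries were not. Plagl1, a zinc finger regulator of other imprinted genes, was at 7.90, 2.29 and 28.1 RPKM in NTC embryos and 0, 0 and 0.639 in vivo (log2 difference 3.01, adjusted p = 0.0866). Mest, a hydrolase-like gene of the mesoderm, was at 1.99, 2.18 and 10.2 RPKM in NTC embryos and 0, 0 and 0.0437 in vivo (adjusted p = 0.119). With median-ratio scaling the all-gene median at this stage moved from 0.56 to 0.26 (NTC) and from 0.24 to 0.08 (NTM), and the share of called genes that were higher fell from 60.4% to 25.8% (NTC) and from 59.2% to 42.8% (NTM).

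In blastulas Snrpn was at 46.1, 41.9 and 33.2 RPKM in NTC, 22.9, 58.0 and 16.1 in NTM and 9.29, 0 and 8.11 in in vivo embryos. All 6 NT libraries were above the in vivo libraries, with log2 differences of 3.18 (SE 0.98, adjusted p = 0.0806) and 2.67 (SE 1.07, adjusted p = 0.164). Cd81, which encodes a tetraspanin, was at 0 in all 3 in vivo blastulas, at 0.400, 2.82 and 3.02 RPKM in NTC and at 2.85, 1.18 and 3.88 in NTM blastulas (adjusted p = 0.102 and 0.0724). In vivo blastula replicate 2 stood apart from the other 2 in these genes, with Airn at 19.2 RPKM and Mest at 29.7 where both others were at 0, and with Snrpn at 0. The all-gene median was 0.85 (NTC) and 0.86 (NTM) at this stage, and 0.47 in both with median-ratio scaling.

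**Figure D4:**
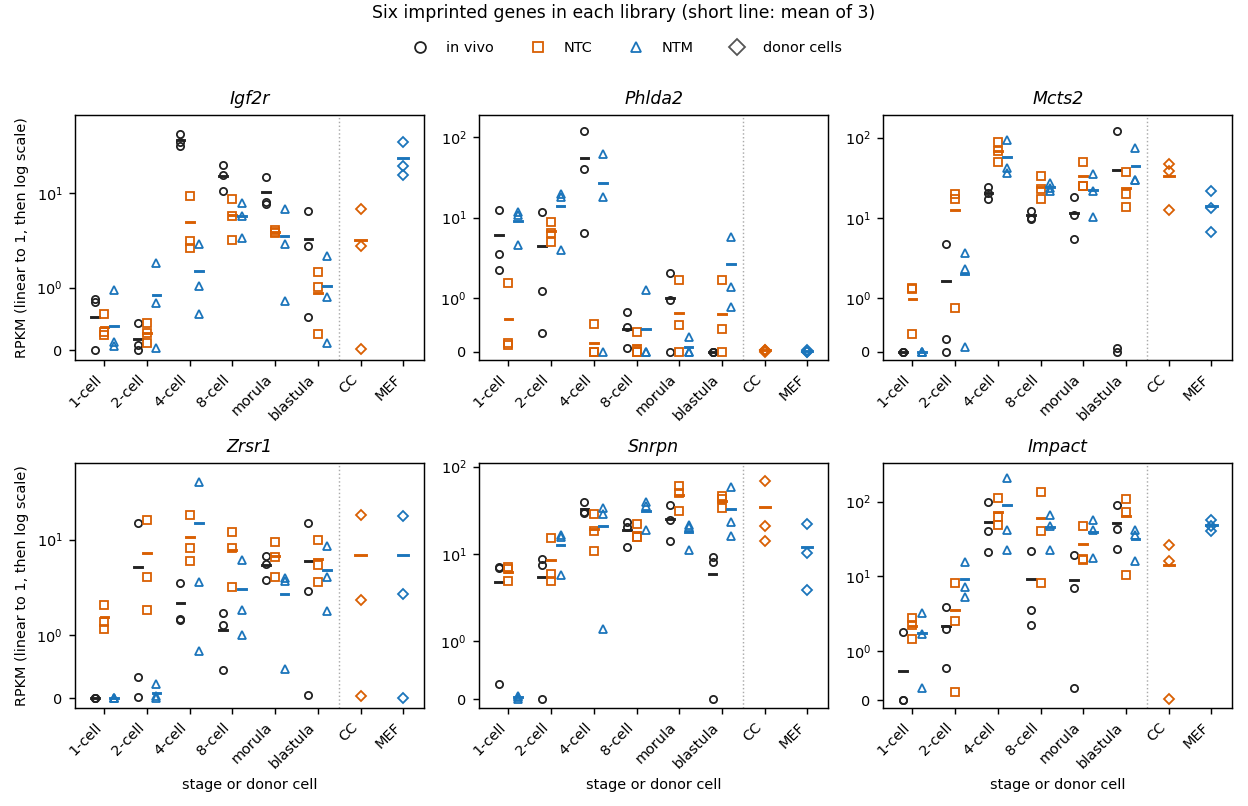
RPKM of Igf2r, Phlda2, Mcts2, Zrsr1, Snrpn and Impact in each library (points) with the mean of 3 (short line), by stage and embryo type and in the donor cells. The y axis is linear up to 1 RPKM and logarithmic above. Igf2r is separated between in vivo and NT embryos at the 4-cell stage (32.2 or more against 9.31 or less), and Mcts2 is at 0 in in vivo and NTM 1-cell embryos.

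The comparison of NTM with NTC embryos asks whether the donor cell shows. At the 1-cell stage 5 of 15 members differed, beside 19.8% of all genes tested, with 4 lower (14.2% of all genes) and 1 higher (5.64%) in NTM embryos. With median-ratio scaling Usp29 was called higher as well (log2 difference 1.16, adjusted p = 0.0487) and Cdkn1c was not called. Snrpn was at 0.0327, 0.0627 and 0 RPKM (1, 2 and 0 reads) in NTM and at 6.73, 4.86 and 7.04 in NTC embryos. This is the largest separation among the 5, with a log2 difference of -2.79 (SE 0.33, adjusted p = 0.00104). In vivo 1-cell embryos gave 0.266, 7.03 and 6.92 RPKM, with replicate 1 near the NTM level. Snrpn itself was at 3.81 RPKM or more in each CC and MEF library.

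Phlda2 was higher in NTM 1-cell embryos, at 11.8, 4.56 and 10.7 RPKM against 0.131, 0.166 and 1.52 in NTC and 12.3, 2.26 and 3.49 in in vivo embryos. The NTC libraries were the low ones here, under both other types (NTM against NTC, log2 difference 2.66, SE 0.47, adjusted p = 0.00548). Zrsr1, at 0 in the NTM libraries, was at least 25.2-fold lower than in NTC embryos, with 3 reads per library as the floor (log2 difference -1.32, adjusted p = 0.0227). Ube3a, a ubiquitin ligase, was at 3.77, 5.85 and 4.6 RPKM in NTM and 8.84, 14.5 and 11.7 in NTC embryos (log2 difference -1.14, adjusted p = 0.0266), and in vivo embryos spanned 1.48 to 26.1. Cdkn1c was at 1.43, 0 and 0 RPKM in NTM and 2.87, 2.73 and 2.23 in NTC embryos (log2 difference -1.42, adjusted p = 0.0450).

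The calls of Ube3a, Zrsr1 and Cdkn1c were lost when single libraries were left out. Ube3a was lost without NTC 1-cell replicate 2 or 3 or NTM 1-cell replicate 1 or 3 (adjusted p = 0.0577 to 0.110), and Zrsr1 without NTC 1-cell replicate 1 or 3 or NTM 1-cell replicate 1 or 3 (0.0581 to 0.0630). Cdkn1c was lost without any 1 of the NTC libraries or NTM 1-cell replicate 2 or 3 (0.0956 to 0.121). The summed oocyte list differed between these groups as well, at 3913 to 4416 RPKM in NTM against 2206 to 2602 in NTC embryos, and its part in the result was not tested. In blastulas 0 of 19 members differed between NTM and NTC embryos by limma, beside 0% of all genes tested. Before adjustment 0 members and 315 of 10187 genes were under 0.05, and no alternative called a member.

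From the 2-cell to the 4-cell stage, when the embryonic genome takes over, 6 of 15 members changed in in vivo embryos, beside 52.2% of all genes tested. In NTC embryos 7 of 18 changed, beside 36.6%, and in NTM embryos 3 of 19, beside 26.4%. Mcts2 rose in each of the 3 types, with log2 differences of 3.47 (SE 0.68, adjusted p = 0.00424) in vivo, 2.94 (SE 0.87, adjusted p = 0.0288) in NTC and 4.37 (SE 0.76, adjusted p = 0.00414) in NTM embryos. Mest fell in each, from 13.9, 21.2 and 9.65 to 3.53, 0.204 and 0.761 RPKM in vivo, with log2 differences of -2.84, -2.10 and -2.56. Impact rose in vivo from 3.91, 0.650 and 1.96 RPKM (log2 difference 3.96, SE 0.66, adjusted p = 0.00199) and in NTC embryos (4.39, SE 0.73, adjusted p = 0.00231). In NTM embryos its log2 difference of 2.65 did not pass the test (adjusted p = 0.0538).

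Igf2r rose from 0.432, 0.0915 and 0.00641 RPKM in in vivo 2-cell embryos to the high 4-cell values, a log2 difference of 5.0 (SE 0.35, adjusted p = 5.4e-05). In NTC embryos it rose by 2.07 (SE 0.56, adjusted p = 0.0194), a call lost without NTC 2-cell replicate 1 or 2 or NTC 4-cell replicate 1 (adjusted p = 0.0512 to 0.0653). In NTM embryos it went from 1.84, 0.755 and 0.0342 RPKM to 1.04, 0.586 and 2.93, with full overlap. The change itself was smaller than in vivo by 2.93 (SE 0.63, adjusted p = 0.00846) in NTC and by 4.57 (SE 0.73, adjusted p = 0.00229) in NTM embryos on the log2 scale. Changes that differed from in vivo made up 14.3% (NTC) and 9.91% (NTM) of all genes tested, and 3 of 19 and 2 of 17 members.

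Phlda2 went the other way in NTC embryos, from 8.83, 6.52 and 4.99 RPKM at the 2-cell stage to 0, 0 and 0.515 (log2 difference -2.73, SE 0.49, adjusted p = 0.00311). In vivo it went from 0.355, 1.24 and 11.8 to 118, 39.9 and 6.39 RPKM, with overlap (log2 difference 3.29, adjusted p = 0.0502). The difference between these changes was -6.02 (SE 1.33, adjusted p = 0.00930). Ascl2 fell in NTC embryos to 0.0650, 0.838 and 0 RPKM (log2 difference -3.12, adjusted p = 0.00824). Grb10 fell in NTM embryos from 6.29, 4.89 and 6.34 RPKM to 0, 0.124 and 0.352 (log2 difference -2.57, SE 0.59, adjusted p = 0.0132), and its in vivo values of 2.00, 2.04 and 3.62 against 3.14, 2.29 and 1.31 overlapped.

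The remaining calls of this transition were weaker. In vivo, Snrpn rose from 8.71, 7.43 and 0 RPKM to 30.4, 29.4 and 38.7 (log2 difference 2.95, adjusted p = 0.0228), a call lost without any 1 of the 4-cell libraries (adjusted p = 0.0764 to 0.0905). Airn fell from 3.81, 3.6 and 0.507 RPKM to 0 in the 3 libraries, which is at least 46.2-fold lower with 3 reads per library as the floor (adjusted p = 0.0305). That call was lost without 2-cell replicate 1 or 2 or any 4-cell library (0.0803 to 0.0992). In NTC embryos Peg3, a zinc finger gene of growth and behaviour, fell from 3.78, 1.24 and 1.36 RPKM to 0, 0.0444 and 0.0220 (adjusted p = 0.0465), lost when any 1 of the 6 libraries was left out (0.0532 to 0.107). The NTC call of Mest was lost without any library but NTC 4-cell replicate 2 (0.0569 to 0.105), its NTM call without 2-cell replicate 2 or 3 or 4-cell replicate 1 or 2 (0.0682 to 0.0833), and the NTC call of Mcts2 without 2-cell replicate 1 or any 4-cell library (0.0506 to 0.0886).

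From the morula to the blastula no member changed in any embryo type by limma, with 0 of 13 in vivo (beside 0.801% of all genes tested), 0 of 17 for NTC (7.16%) and 0 of 16 for NTM (4.22%). Before adjustment 2, 3 and 3 members were under 0.05, and one fit over all 20 groups called 3, 0 and 1. Igf2r, at 4.11, 3.80 and 3.85 RPKM in NTC morulae and 0.257, 1.02 and 1.48 in NTC blastulas, came near the threshold without overlap (log2 difference -1.41, adjusted p = 0.0782). Cd81 in NTM embryos went from at most 0.0347 RPKM in morulae to 2.85, 1.18 and 3.88 in blastulas (log2 difference 1.77, adjusted p = 0.0724).

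The donor cells were compared to see which imprinted genes differed in level between the cell types that gave the nuclei. Between MEF and CC libraries 4 of 30 members differed, beside 6.29% of all genes tested, and all 4 were higher in MEF (3.99% of all genes). H19, a noncoding RNA of fetal tissues, was at 247, 443 and 823 RPKM in MEF and 0.203, 0.227 and 0.12 in CC libraries (log2 difference 8.57, SE 0.55, adjusted p = 5.3e-05). Cdkn1c was at 198, 99.1 and 1618 RPKM in MEF and at most 0.131 in CC libraries (log2 difference 8.18, SE 0.94, adjusted p = 0.00143). The MEF libraries thus differed among themselves by over an order of magnitude in Cdkn1c, while the gap to CC was far larger.

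Grb10 was at 46.6, 49.9 and 21.8 RPKM in MEF and at most 0.122 in CC libraries (log2 difference 5.17, adjusted p = 0.00220). Peg3 was at 25.3, 30.0 and 51.3 RPKM in MEF and at most 0.0286 in CC libraries (log2 difference 5.10, adjusted p = 0.00219). The median log2 difference over the 30 members tested was 1.63, beside 0.19 over all genes tested. The difference was above 0 in 24 of 30, beside 55.6% of all genes tested. The groups did not overlap in 17 of the 30, beside 24.5% of all genes tested.

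Low values in CC libraries need a remark. Of the 16 members with a MEF mean of 10 RPKM or more, 6 had a CC mean under 0.2% of it, among them H19 (0.0363%), Mest (0.0719%), Peg3 (0.0565%) and Igf2 (0.0167%). The 9 fibroblast marker genes lay at 0.0396% to 0.107% of their MEF levels in CC libraries, and their sum at 0.0537%. Whether traces of this size were made in the cumulus cells was not tested.

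Cd81 was alike in both donors, at 121, 152 and 120 RPKM in CC and 115, 116 and 126 in MEF libraries. Nap1l5, a nucleosome assembly retrogene, was at 0.218, 137 and 484 RPKM in CC and 0.116, 67.9 and 0 in MEF libraries, so that libraries of 1 group differed more than the groups did (adjusted p = 0.508). Impact was at 0.0390 RPKM in CC replicate 1 and at 26.5 and 16.1 in the other CC libraries. Ndn, a necdin gene of neurons and muscle, was at 41.8, 30.5 and 24.9 RPKM in MEF and 0.0162, 5.86 and 10.8 in CC libraries (adjusted p = 0.117).

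Blastulas were set beside the cells that gave their nuclei. Between NTC blastulas and CC libraries 1 of 20 members differed, Cd81, which was lower in blastulas (log2 difference -5.56, SE 0.52, adjusted p = 5.43e-04), beside 24.2% of all genes tested. Between NTM blastulas and MEF libraries 15 of 32 differed, beside 30.8% of all genes tested, with 14 lower in blastulas (19.8% of all genes) and 1 higher (11%). With median-ratio scaling 19 were called, the same 15 and Mcts2, Snrpn, Phlda2 and Ube3a, which were higher in blastulas (adjusted p = 0.0144 to 0.0495), and the share of called genes that were higher moved from 35.8% to 48.9%. These comparisons set embryos against cells of another type, and so tissue and nuclear transfer cannot be told apart. H19 was at 0, 0 and 10.9 RPKM in NTM blastulas (log2 difference -7.62 against MEF, SE 0.97, adjusted p = 7.35e-04), and NTM blastula replicate 3 held the highest H19 level of the 54 embryo libraries. H19 was above 0 in only 6 of the 54.

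The other members lower in NTM blastulas than in MEF were Cdkn1c (log2 difference -7.75), Cd81 (-5.12), Grb10 (-5.10), Peg3 (-5.05), Plagl1 (-4.76), Ndn (-4.71), Meg3 (-4.02), Igf2r (-3.63), Rian (-3.58), Airn (-2.73), Sgce (-2.17), Zim1 (-1.96) and Gnas (-1.84). Meg3 and Rian, noncoding RNAs of the Dlk1-Meg3 domain, were at 17.3, 18.7 and 12.6 and at 16, 13.3 and 7.04 RPKM in MEF and at most 0.148 and 0.140 in NTM blastulas. Plagl1 was at 34.4, 19.9 and 36.5 RPKM in MEF and at most 0.321 in NTM blastulas, and Airn and Zim1 were at 3.69, 8.05 and 5.85 and at 5.04, 2.39 and 1.87 RPKM in MEF and at 0 in the 3 NTM blastulas. Sgce, a sarcoglycan gene, was at 10.73, 10.73 and 3.91 RPKM in MEF and 0.263, 1.61 and 1.24 in NTM blastulas. Gnas, which encodes a G protein subunit, was at 3.64, 3.74 and 1.25 RPKM in MEF and 0.0747, 0 and 0 in NTM blastulas. In these members, listed because they passed the test, the groups did not overlap. No share of groups without overlap over all genes tested is given for this comparison. The lack of overlap therefore cannot be set against that of other genes.

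Igf2, a fetal growth factor, was at 5.56, 6.31 and 54.4 RPKM in MEF and 4.77, 0.306 and 0 in NTM blastulas, without overlap, and did not pass the test (adjusted p = 0.0605). Its MEF mean rests largely on replicate 3. Ddc, which encodes an enzyme of monoamine synthesis, was at 1.87, 2.54 and 1.03 RPKM in NTM blastulas and 0 in the 3 MEF libraries (log2 difference 1.46, adjusted p = 0.0494). Ddc, Gnas, Sgce and Zim1 lost the call without single libraries (adjusted p = 0.0511 to 0.138): Ddc without any library but NTM blastula replicate 3, Gnas without any but MEF replicate 3, Sgce without MEF replicate 1 or 2 or NTM blastula replicate 1 or 3, and Zim1 without NTM blastula replicate 1 or 2.

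**Figure D5:**
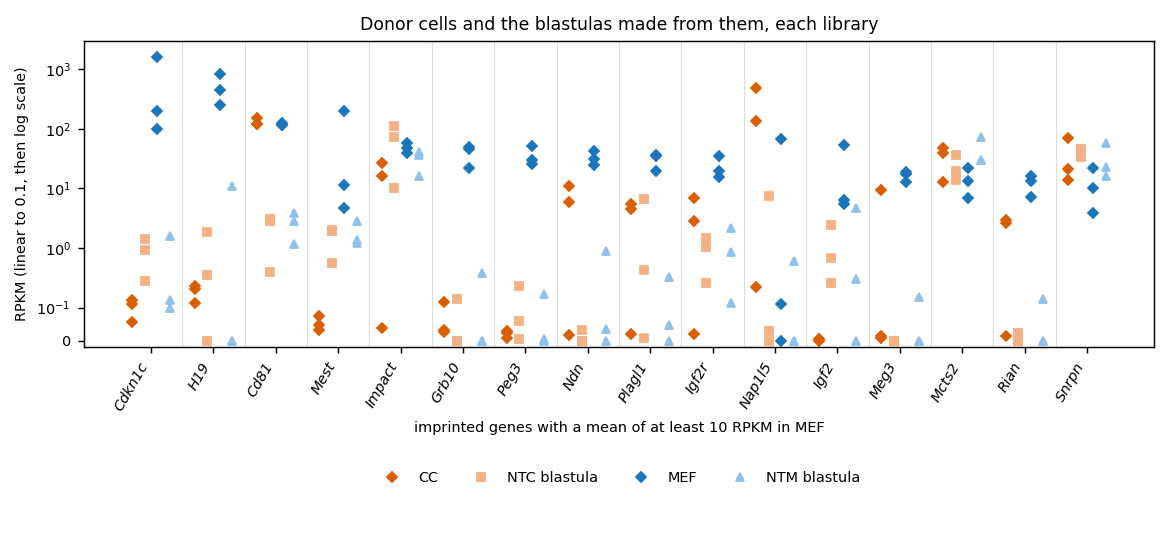
RPKM in each library of CC, NTC blastulas, MEF and NTM blastulas for the 16 imprinted genes with a MEF mean of 10 RPKM or more, on a y axis that is linear up to 0.1 RPKM and logarithmic above. H19 and Cdkn1c reach 247 to 823 and 99.1 to 1618 RPKM in MEF, and Cd81 lies at 115 to 152 RPKM in both donors and at 0.400 to 3.88 in the blastulas.

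The Dlk1-Meg3 domain was close to silent in embryos, and other domains mixed silent and abundant members. In the Dlk1-Meg3 domain, Rtl1 was at 0 in all 54 embryo libraries, Dlk1 and Dio3 were above 0 in 1 library each, Mirg in 2, Rian in 13 and Meg3 in 20, and no embryo library exceeded 0.407 RPKM for any of these 6 genes. In the Snrpn domain Snrpn and Ube3a were broadly present, above 0 in 51 and 54 embryo libraries, whereas Ndn was above 0 in 8, Mkrn3 in 14 and Peg12 in 5. In the Kcnq1 domain the silencing RNA Kcnq1ot1 was above 0 in 40 embryo libraries but reached 0.149 RPKM at most, and Slc22a18, a transporter gene, was above 0 in 9. Peg10, a retrotransposon-derived gene of the placenta, was above 0 in 12 and its neighbour Sgce in 34. Nnat, Rasgrf1 and Gnas had a highest embryo library of 0.771, 0.0886 and 0.608 RPKM. Igf2 was above 0 in 31 embryo libraries, with 5.21 RPKM at most, and Usp29 in 46, with 6.73 at most.

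Among 12 factors that set, protect or erase imprints, 4 were lower in NTC 4-cell embryos and 5 in NTM 4-cell embryos than in vivo, with none higher, in the same comparisons whose background shares of 27.8% and 21.1% are given above. Dppa3 was at 12402, 8284 and 9154 RPKM in vivo, 47.9, 17.8 and 28.4 in NTC libraries and 25.3, 51.4 and 37.3 in NTM libraries (log2 difference -8.35, SE 0.34, and -8.03, SE 0.31). Trim28, the partner of ZFP57, had 80.1, 50.2 and 51.9 RPKM in vivo, 27.5, 21.0 and 24.8 in NTC libraries and 11.5, 17.8 and 23.3 in NTM libraries. Dnmt3l, a cofactor of de novo methylation, was at 25.4, 19.4 and 15.1 RPKM in vivo and at most 0.509 in NTC libraries and 1.71 in NTM libraries. For Dppa3 and Dnmt3l it was the in vivo 4-cell libraries that stood apart. Embryo libraries of any other group, in vivo ones included, were at 149 RPKM or less for Dppa3 and 3.67 or less for Dnmt3l. Zfp57 was at 24.1, 18.6 and 10.3 RPKM in vivo, 10.3, 3.03 and 2.94 in NTC libraries and 5.54, 1.22 and 0.372 in NTM libraries, and Zfp445 was at 0 in the 3 NTM libraries. No factor passed the test against in vivo embryos at the other 5 stages by limma (9 to 12 tested in each).

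The factors also differed between NTM and NTC embryos at the 1-cell stage, where 4 of 12 passed the test, beside 19.8% of all genes tested. Dppa3 was higher in NTM embryos (log2 difference 1.41), while Zfp57 (-2.33), Zfp445 (-2.25) and Dnmt3a (-1.25) were lower. Over the 2-cell to 4-cell interval 10 of 12 factors changed in vivo (beside 52.2% of all genes tested), where Dnmt3l, Dppa3 and Trim28 rose and the other 7 fell. In NTC embryos 5 of 12 changed (36.6%), with Trim28 the one that rose, and in NTM embryos 3 of 11 (26.4%), which all fell. The NTC and NTM shares lie near those over all genes. The change differed from in vivo for Dnmt3l and Dppa3 in both NT types and for Trim28 in NTC embryos.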

How the data were processed

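Each library was made from a single embryo or from donor cells by poly(A) tailing, amplified and sequenced, with spike-in RNA added. The authors mapped reads with TopHat 2.0.12 and Bowtie2 2.2.3, counted them with HTSeq 0.6.0 and deposited 1 table of RPKM values. The submitters' processing notes name Bowtie 0.12.2 and the mm8 build instead, and the table holds no coordinates. Counting settings for strand and multiply mapped reads are not given in the sources used here.

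Reads on genes were recovered from the RPKM steps with GENCODE exon lengths. Member reads used the GENCODE length for 20 of 38 members and, for the other 18, the length that made the values whole, so their read counts and floors rest on a fitted length. All 38 then came out whole within 0.05 reads for at least 90% of their low values. Differences were tested with limma 3.58.1 (R 4.3.3; lmFit and eBayes with a trend) on log2(RPKM + 1), for the libraries of each comparison, in 25 comparisons, over genes whose mean over those libraries was 0.5 RPKM or more. Adjusted p-values are Benjamini-Hochberg over all genes tested. Floors used 3 reads per library. Scripts were tested on simulated data. Python 3.11.15, pandas 2.3.3, numpy 2.4.6, scipy 1.17.1 and matplotlib 3.10.9 were used.

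The members, the 12 imprint factors and the marker lists were chosen with earlier results of these data known. All members are accounted for. Values by library are given in the groups where a member passed the test, by size of change, and in some groups for those with a mean of at least 10 RPKM, and other members, Mcts1 and Zrsr2 were singled out after their values were seen. Alternatives were each library left out, a pseudocount of 0.1, no filter, a block for the replicate number, scaling by median ratios and a single fit of the 20 groups.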

Additional observations from a re-analysis of the deposited data

Results flagged for a closer look

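The change from the 2-cell to the 4-cell stage differed between NT and in vivo embryos, by a test of the difference itself, for 5 pairs of a member and an embryo type. For NTC embryos these were Igf2r (difference of log2 changes -2.93, SE 0.63, adjusted p = 0.00846), Phlda2 (-6.02, SE 1.33, adjusted p = 0.00930) and Ascl2 (-2.69, SE 0.79, adjusted p = 0.0380). For NTM embryos they were Igf2r (-4.57, SE 0.73, adjusted p = 0.00229) and Grb10 (-2.43, SE 0.61, adjusted p = 0.0251). These were 3 of 19 members tested for NTC and 2 of 17 for NTM, beside 14.3% and 9.91% of all genes tested. Both shares lie near those over all genes. Both tests use the same in vivo libraries, and groups of 3 were not tested for outlying samples. The call of Ascl2 was lost without any 1 of the libraries but in vivo 2-cell replicate 3, NTC 2-cell replicate 1 and NTC 4-cell replicate 2 (adjusted p = 0.0537 to 0.0815). The call of Grb10 was lost without in vivo 2-cell replicate 1 or in vivo 4-cell replicate 1 or 2 (adjusted p = 0.0518 to 0.0699).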

How the results depend on the processing

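Of 52 calls of a member in a comparison, 33 stood in every alternative run, 34 stood with each library left out, and 0 reversed. The cause of the moves below was not tested. One fit over all 20 groups called 1 member against in vivo embryos for NTC and for NTM at the 1-cell stage. At the 2-cell stage it called 2 (NTC) and 1 (NTM). At the 4-cell stage it called 3 for NTC, of which 0 were higher, and 4 for NTM. It called 1 (NTC) at the 8-cell stage and 2 (NTC) and 5 (NTM) in blastulas. It called 2 between NTM and NTC 1-cell embryos, 8 from the 2-cell to the 4-cell stage in NTM, 3 (in vivo) and 1 (NTM) from morula to blastula, 4 for the NTM change against in vivo, 19 between MEF and CC and 6 between NTC blastulas and CC. With a pseudocount of 0.1 the counts were 1 (NTC) and 2 (NTM) in blastulas against in vivo, 5 for NTM from the 2-cell to the 4-cell stage and 2 for NTC blastulas against CC. Without a filter they were 1 for NTM 4-cell against in vivo and 3 for NTC from the 2-cell to the 4-cell stage.

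The replicate numbers did not pair the samples: same-numbered samples correlated between -0.165 and 0.119 in their deviations from the group means, and each library correlated best with its own number only between NTM and NTC blastulas. A replicate block gave 1 member for NTM 4-cell and 1 for NTC 8-cell against in vivo, 3 for NTM against NTC at the 1-cell stage, 1 for the NTM change against in vivo and 3 for NTC blastulas against CC. In NTC blastulas against in vivo the block called 12 of 9288 genes, where 879 were called without it.

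Leaving out 1 library gave 0 to 2 members for NTM 1-cell (2 without in vivo replicate 1), 1 to 2 for NTM 4-cell and 0 to 1 for NTM 8-cell (1 without in vivo replicate 2) against in vivo. In blastulas it gave 0 to 1 for NTC (1 without in vivo replicate 3 or NTC replicate 1) and 0 to 1 for NTM (1 without NTM replicate 3). The range was 2 to 6 for NTM against NTC 1-cell, 4 to 10 for in vivo 2-cell to 4-cell (10 without 2-cell replicate 3), 3 to 5 for NTC 2-cell to 4-cell, 1 to 3 for the NTM change against in vivo and 1 to 4 for NTC blastulas against CC (4 without CC replicate 1). Groups of 3 embryos and 5293982 to 26283681 reads on genes limit calls of members near 0.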
